A study of Mus musculus with 12 samples.

Results

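The 10 genes described here carry dietary fatty acids into the enterocyte and rebuild them into triglyceride: Cd36 and Slc27a4 for uptake, Fabp1 and Fabp2 for transport within the cell, Mogat2, Dgat1 and Dgat2 for resynthesis, and Plin2, Plin3 and Cideb at lipid droplets. They form a list set by name from their known roles, drawn up when earlier results of these data were known, and each was read from the brightest probe set that carries its symbol and no other. They are 10 of 19938 genes with such a probe set and 10 of the 11927 genes that were tested, since all 10 passed the minimum intensity of 50 on at least 1 array. Each of them has 1 such probe set on the array.

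The samples were scrapings of the mucosa and submucosa of male C57BL/6J mice, killed after a meal. They came from a proximal, a middle and a distal stretch of small intestine. Old mice of 21 months and young mice of 4 months received a high-fat diet (45% of energy from fat, as palm oil) or stayed on the low-fat diet (10%) for 2 weeks, after a run-in in which all mice ate the low-fat diet. The groups were thus old high-fat, old low-fat, young high-fat and young low-fat mice, all unmodified animals of 1 inbred strain and 1 sex. By the methods, the diets differed in starch as well as in fat. Each segment of each group was measured on 1 Affymetrix Mouse Gene 1.0 ST array with RNA pooled from the 8 old or 6 young mice of the group, so the 12 arrays stand for 4 pools of mice, and the spread between single mice was not measured.

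Dietary triglyceride is cut in the gut lumen to fatty acids and monoacylglycerol, which the enterocyte takes up. Inside the cell, binding proteins hold the fatty acids, acyltransferases of the endoplasmic reticulum join them to monoacylglycerol and then to diacylglycerol, and the new triglyceride leaves in chylomicrons or waits in lipid droplets of the cytosol. Most fat is absorbed in the proximal and middle small intestine, and the distal part reabsorbs bile acids. Several of these genes, Cd36, Fabp1 and Plin2 among them, are known targets of the fatty acid-sensing nuclear receptors of the PPAR family, which bind as partners of RXR to repeats of the bases AGGTCA.

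The genes lie on 9 chromosomes, with Mogat2 (chr7:99219084-99238611, GRCm38.p6, as all positions here) and Dgat2 (chr7:99153663-99182713) near each other on chromosome 7. Windows from 250 bases before to 50 bases after the start were given by RefSeq for 7 of the 10 genes, and Mogat2, Dgat1 and Dgat2 had none. Those of Fabp1 (chr6:71199629-71199928, plus strand), Cd36 (chr5:17835847-17836146, minus strand) and Plin2 (chr4:86670010-86670309, minus strand) are shown because these are the 3 genes that were higher on the high-fat diet over the 4 pools. Capitals mark, on either strand, 2 copies of AGGTCA in the same direction with 1 base between and up to 1 mismatch in the 12 bases compared, and TATAAA on the strand shown.
Fabp1: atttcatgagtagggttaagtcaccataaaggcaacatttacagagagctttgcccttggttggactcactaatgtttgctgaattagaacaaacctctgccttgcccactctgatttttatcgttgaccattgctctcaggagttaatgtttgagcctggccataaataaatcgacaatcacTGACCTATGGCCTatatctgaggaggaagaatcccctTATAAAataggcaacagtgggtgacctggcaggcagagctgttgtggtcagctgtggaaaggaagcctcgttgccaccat
Cd36: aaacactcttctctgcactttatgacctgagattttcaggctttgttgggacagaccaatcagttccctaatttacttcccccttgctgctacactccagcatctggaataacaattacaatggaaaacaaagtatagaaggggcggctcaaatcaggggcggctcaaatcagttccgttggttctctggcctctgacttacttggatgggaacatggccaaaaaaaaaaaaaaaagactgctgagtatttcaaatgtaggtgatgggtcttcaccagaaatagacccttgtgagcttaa
Plin2: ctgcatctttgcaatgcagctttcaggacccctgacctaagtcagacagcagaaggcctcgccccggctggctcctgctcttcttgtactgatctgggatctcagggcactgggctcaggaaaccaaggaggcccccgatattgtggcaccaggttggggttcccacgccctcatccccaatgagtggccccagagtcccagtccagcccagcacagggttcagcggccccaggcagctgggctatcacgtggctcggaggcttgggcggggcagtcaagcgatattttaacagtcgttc
The Fabp1 window held such a repeat on the minus strand, at positions −67 to −55 from the start with 1 mismatch, and TATAAA at positions −30 to −25. The mismatch limit was set after the windows were seen. Of 27025 mouse windows of the same length, 0.54% held a repeat with up to 1 mismatch, 3.81% held one with up to 2, and 2.98% held TATAAA on the plus strand within the 50 bases before the start. The Cd36 window lies inside the span listed for that gene (chr5:17781690-17888959). Its start is thus not the one at the end of that span. The Cd36 and Plin2 windows held 1 repeat each with 2 mismatches. Those of Fabp2, Slc27a4, Plin3 and Cideb held none with up to 2. These matches are letters in a window, and no binding was measured here.

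The arrays were alike in overall level, with medians of 5.57 to 5.70 log2 intensity, and the highest value in the table was 14.49. Epithelial markers were present on all arrays: the summed intensity of 14 of them was 46644 to 48499 in the proximal, 52444 to 54933 in the middle and 58509 to 59113 in the distal segment. Fabp6, the bile acid binding protein of the ileum, separated the segments at 4.59 to 6.07 log2 intensity in the proximal and 13.06 to 13.09 in the distal arrays, and it differed among the 4 middle arrays, at 7.58 in old high-fat, 11.31 in young high-fat, 8.84 in old low-fat and 9.49 in young low-fat mice. The proximal arrays also carried pancreatic acinar RNA, with a summed intensity of 21 acinar genes of 66414 to 100587 in high-fat and 42794 to 51732 in low-fat mice, against 2482 to 5060 in the other segments. In pooled scrapings, fewer cells of a type and less RNA per cell cannot be told apart.

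Position along the gut was the largest source of variation for 9 of the 10 genes. The segment took between 53.7% (Plin3) and 91.1% (Dgat2) of a gene's sum of squares over the 12 arrays in those 9 genes. Slc27a4, a fatty acid transport protein with acyl-CoA synthetase activity, was the exception: segment took 20.7% and diet 61.6%. Diet took 33.9% for Plin3, 27.6% for Plin2, 21.4% for Fabp2, 14.6% for Cideb and 11.6% for Fabp1, and 0.1% for Dgat1. Age by itself took at most 2.9% of any gene's variation, the value of Dgat1. The largest share of segment by age was 9.0% (Slc27a4), and that of segment by diet was 8.2% (Fabp1). These shares describe the 12 arrays and carry no test.

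**Figure D1:**
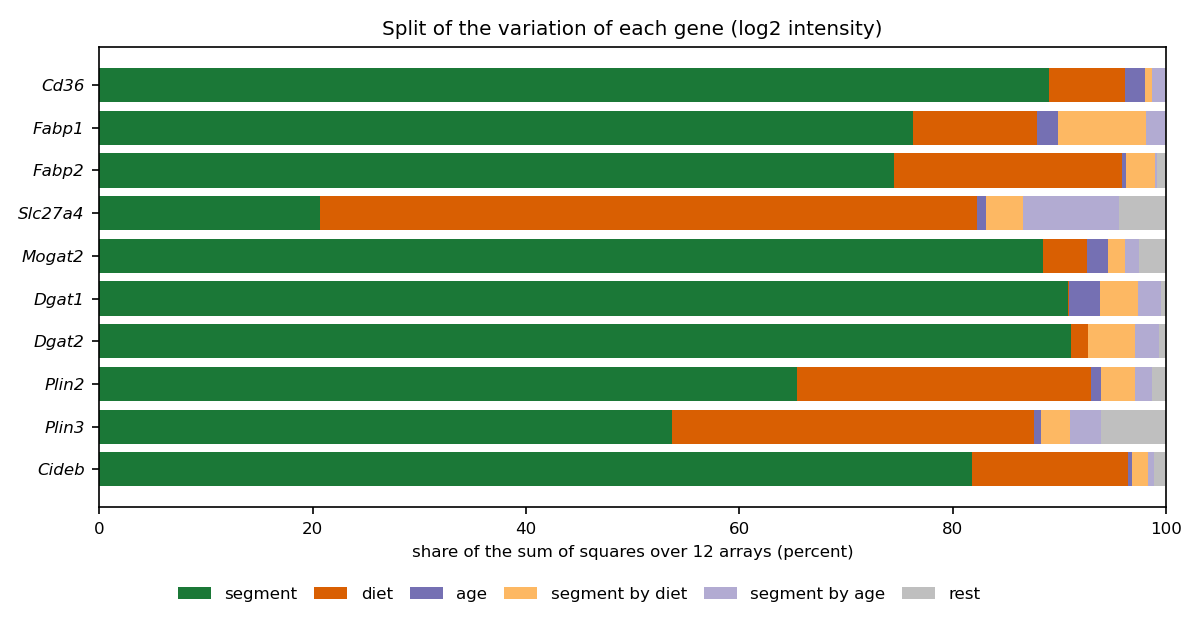
Share of the sum of squares of log2 intensity over the 12 arrays (percent, horizontal axis) for each of the 10 genes, split into segment, diet, age, segment by diet, segment by age and the rest. Segment fills most of each bar except that of Slc27a4, where diet takes 61.6%.

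Toward the distal end, 8 of the 10 genes were lower, and Fabp2 and Slc27a4 were not. Cd36, the scavenger receptor that binds long-chain fatty acids at the brush border, averaged 10.07 ± 0.35 log2 intensity proximally, 10.33 ± 0.26 in the middle and 8.68 ± 0.26 distally (SD over the 4 arrays, which differ in age and diet). All 4 distal arrays lay below the other 8, as they also did for Fabp1, Mogat2, Dgat1, Dgat2, Plin2 and Cideb. The share of all genes that separate this way was not counted. The distal Cd36 level was 0.382 times the proximal one (log2 difference −1.39, SE 0.09, limma adjusted p = 9.95e-07 with the pool of mice as a block).

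Fabp1, the liver-type fatty acid binding protein, averaged 13.18 ± 0.07 proximally, 13.06 ± 0.20 in the middle and 11.69 ± 0.72 distally (log2 intensity, SD, n = 4 arrays). Its spread among the 4 distal arrays was the widest of any gene and segment here, and all 4 lay below the proximal and middle arrays. The distal level was 0.357 times the proximal one (log2 difference −1.49, SE 0.19, limma adjusted p = 0.0001). Fabp2, the intestinal fatty acid binding protein, ran the other way, with 13.10 ± 0.16, 13.43 ± 0.10 and 13.49 ± 0.07 from proximal to distal. It was higher in the distal than in the proximal segment by 0.39 (SE 0.05, limma adjusted p = 0.000112), but by 0.02 (adjusted p = 0.746) once the mean of the epithelial markers, which also rose distally, was subtracted from each array. Fabp2 on all arrays and Fabp1 on the proximal and middle ones lay near the top of the scale.

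The acyltransferases fell along the gut to different extents. Dgat2, which adds the last fatty acid to diacylglycerol, averaged 11.40 ± 0.08, 11.06 ± 0.12 and 10.48 ± 0.19 log2 intensity from proximal to distal (SD, n = 4 arrays). It was lower at both steps, by 0.34 from proximal to middle (SE 0.09, limma adjusted p = 0.0205) and by 0.58 from middle to distal (SE 0.09, adjusted p = 0.000859). Without the old low-fat, young high-fat or young low-fat pool the first step did not pass (log2 difference −0.398 to −0.276 over the 4 pools left out, adjusted p up to 0.144). Dgat1, an unrelated enzyme for the same reaction, was level in the proximal (12.19 ± 0.02) and middle segment (12.18 ± 0.04) and lower in the distal one (11.80 ± 0.11). Mogat2, the monoacylglycerol acyltransferase of the enterocyte, had the same order, with 11.35 ± 0.03, 11.37 ± 0.08 and 10.95 ± 0.11. Distal minus proximal was −0.39 for Dgat1 (SE 0.06, limma adjusted p = 0.00021) and −0.40 for Mogat2 (SE 0.05, adjusted p = 0.000118).

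At lipid droplets, Cideb, which also takes part in the lipid loading of lipoprotein particles, fell to 11.34 ± 0.15 log2 intensity in the distal segment, against 11.93 ± 0.07 in the proximal one (SD, n = 4 arrays). Plin2, a coat protein of droplets, was at 9.87 ± 0.11 in the distal and 10.43 ± 0.20 in the proximal segment. Plin3, a coat protein that is found in the cytosol and on small new droplets, was at 11.40 ± 0.16 in the distal and 11.68 ± 0.09 in the proximal segment. The log2 differences were −0.59 for Cideb, −0.56 for Plin2 and −0.28 for Plin3, each past the limma threshold (adjusted p = 1.38e-05, 9.83e-05 and 0.00151), and that of Plin3 was −0.08 (adjusted p = 0.211) after quantile normalization of the genes kept. Slc27a4 stayed between 10.92 and 11.41 over all 12 arrays, with a distal minus proximal difference of −0.07 (95% interval −0.205 to 0.071).

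From proximal to distal, 8 genes were thus lower and 1 higher, where 27.5% of all tested genes were lower and 27.3% higher. From middle to distal, 8 were lower (20.0% of all genes) and 0 higher (14.6%), with Slc27a4 at −0.17 (adjusted p = 0.062) and Fabp2 at 0.07 (adjusted p = 0.349; −0.127 with the epithelial mean subtracted, adjusted p = 0.0745). At an unadjusted p under 0.05, 9 of the 10 genes passed there, against 5481 of all 11927 genes. From proximal to middle, 1 gene was higher (Fabp2, 0.33, SE 0.05; 14.0% of all genes) and 1 lower (Dgat2; 10.9%). The median difference from proximal to distal was −0.482 over the 10 genes and 0.015 over all genes. Of the 14 epithelial markers 11 were higher distally than proximally and 0 lower, with a median of 0.358, and all 10 smooth muscle markers were higher (median 1.478). Of 12 enterocyte brush border markers 7 were lower and 4 higher, with a median of −0.48. Macrophage markers were lower in 7 of 10 cases and higher in 1 (median −0.646), and adipocyte markers higher in 7 of 9 and lower in 2 (median 1.253). The part of these cell types, and of the acinar RNA in the proximal arrays, in the segment differences was not tested. With the epithelial mean subtracted, those 8 genes passed as lower from proximal to distal, with differences from −1.858 (Fabp1) to −0.65 (Plin3), and so did Slc27a4 (−0.439, adjusted p = 4.57e-05).

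**Figure D2:**
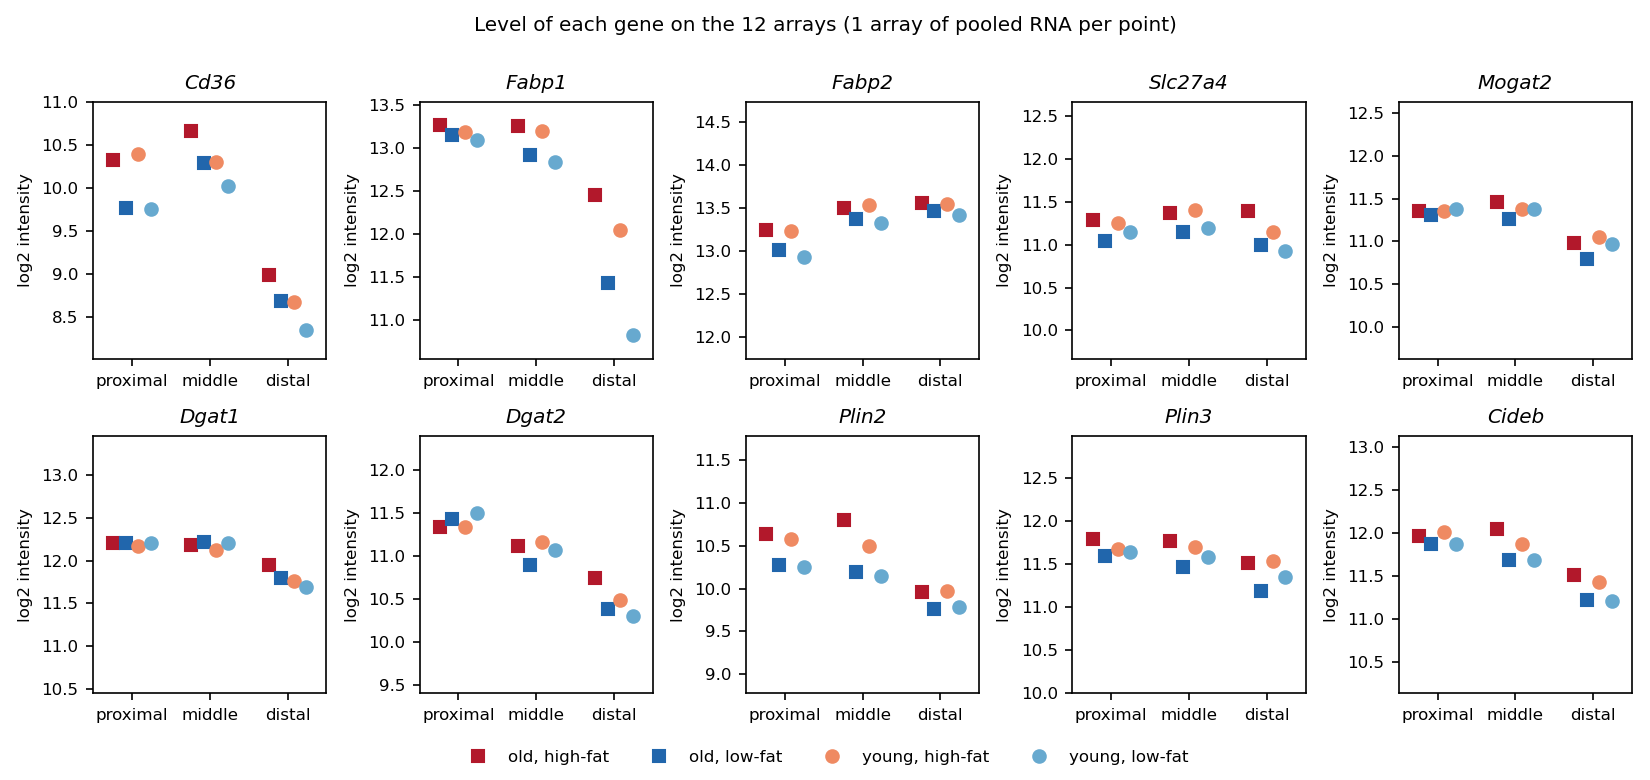
Log2 intensity (vertical axis, each panel centred on its gene and spanning about 3 log2 units) of the 10 genes by segment; each point is 1 array of pooled RNA, from left to right old high-fat, old low-fat, young high-fat and young low-fat mice. In Cd36, Fabp1, Mogat2, Dgat1, Dgat2, Plin2 and Cideb all 4 distal points lie below the other 8. The distal Fabp1 points spread between 10.82 and 12.46.

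The question of the dietary comparison was how the intestine of old and young mice met a high-fat load. Over the 4 pools (means of the 3 segments), all 10 genes were on the higher side in high-fat mice and 3 passed the test: Fabp1, Cd36 and Plin2. The median difference was 0.205 over the 10 genes and −0.013 over all genes, and 2.51% of all genes passed as higher. One gene passed within each segment: Cd36 proximally, Plin2 in the middle and Fabp1 distally. Of all genes, 0.235%, 1.31% and 0.352% were called higher in these segments. That a gene passed in one segment does not show that its difference was greater there: distal minus proximal, the diet difference of Cd36 was −0.28 (adjusted p = 0.477) and that of Plin2 −0.15 (adjusted p = 0.709), and the middle segment was not tested against the others. At an unadjusted p under 0.05, 3, 7 and 7 of the 10 genes passed from proximal to distal, against 1286, 2150 and 2088 of all 11927 genes. Over the pools, 4 of 10 smooth muscle markers, 1 of 7 fibroblast markers and 1 of 14 epithelial markers were lower. Of 9 adipocyte markers, 2 were higher: Car3 and Cidec, the latter also counted below among the lipid droplet genes. Of 12 brush border markers 4 were lower (Mgam, Slc15a1, Slc2a2 and Slc5a1) and 1 higher (Treh), with a median of −0.11, and of 10 markers of proximal and ileal identity 3 were lower and 1 higher. Of all genes, 3.1% were called lower over the pools. Their part in the 3 calls was not tested.

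Fabp1 showed the widest gap, at the distal end. In the distal segment it lay at 12.46 in old and 12.06 in young high-fat mice, against 11.43 in old and 10.82 in young low-fat mice (log2 intensity). Both high-fat arrays lay above both low-fat arrays, which can happen by chance with so few. High-fat over low-fat was 2.19-fold (log2 difference 1.13, SE 0.08, limma adjusted p = 0.00276). In the middle segment it was at 13.26 in old and 13.20 in young high-fat mice, against 12.93 in old and 12.84 in young low-fat mice, a difference of 0.35 that did not pass (adjusted p = 0.0687). In the proximal segment it was at 13.27 and 13.19 in old and young high-fat mice, against 13.15 and 13.10 in old and young low-fat mice, with a difference of 0.10 (95% interval −0.081 to 0.281). The diet difference itself was greater in the distal than in the proximal segment by 1.03 (SE 0.11, limma adjusted p = 0.0449). Proximal Fabp1 lay near the top of the scale, and the proximal arrays carried more acinar RNA in high-fat than in low-fat mice. The part of either in this gap was not tested. Fabp1 was the only member of the 10 to pass this test, which 0.0252% of all genes passed as higher. An unadjusted p under 0.05 was reached by 3 of the 10 and by 1133 of all 11927 genes. This call was lost with the pool as a random block (adjusted p = 0.0603) and whichever array was left out (0.933 to 1.134, adjusted p 0.0901 to 0.182), whereas the distal diet call passed without each of the 12 arrays (1.033 to 1.234, adjusted p up to 0.0278).

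Values that could move with the distal Fabp1 difference were taken beside it. The epithelial sum was 58509 to 59113 in high-fat and 58772 to 58858 in low-fat distal arrays, and 0 of 14 epithelial markers passed. Fabp6 stayed within 13.06 to 13.09 on all 4 distal arrays, near the top of the scale, where a shift may not show. Of the 10 markers of proximal and ileal identity 3 were on the higher side in this segment (median −0.087), and 0 passed. Gata4, higher proximally, lay at 8.41 in old and 8.01 in young high-fat mice, against 7.97 and 7.80 in old and young low-fat mice. Fgf15, higher distally, lay at 10.72 and 10.11, against 10.95 and 10.61. Slc40a1, higher proximally, lay at 7.90 and 8.82, against 8.75 and 9.21. Smooth muscle markers summed to 1748 in old and 3994 in young high-fat mice, against 2940 in old and 5464 in young low-fat mice. Of these 10 markers 2 were on the higher side (median −0.541), with 0 called. Macrophage markers were on the higher side in 1 of 10 cases (median −0.208), with 0 called. Fibroblast markers were on the lower side in 7 of 7 cases (median −0.534), with Dpt called lower, where 0.168% of all genes were. With the epithelial mean subtracted, the Fabp1 difference was 1.16 (adjusted p = 0.00154). Among 169 other genes that were over 2-fold lower in the distal than in the middle segment, a group examined after the values were seen, 65.1% had a positive distal diet difference (median 0.107), against 48.7% of all genes. Among 87 genes over 2-fold higher distally than in the middle segment, the share was 26.4% (median −0.188). Among 283 over 2-fold higher distally than proximally it was 29.3% (median −0.14). The share was 56.9% (median 0.035) among 439 genes over 2-fold lower distally than proximally. It was 49.9% (median −0.001) among all 2374 others called lower from middle to distal. Slc2a2, the glucose transporter GLUT2, likewise lower distally, was lower in high-fat mice by 0.83 (SE 0.07, adjusted p = 0.00674). Treh, the enzyme trehalase, lower distally too, was higher in high-fat mice by 0.57 (SE 0.09, adjusted p = 0.0484), at 9.49 in old and 9.06 in young high-fat mice, against 8.80 in old and 8.62 in young low-fat mice; these were the 2 of 12 brush border markers called.

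Cd36 was higher on the high-fat diet in every array pair. In the proximal segment it lay at 10.33 in old and 10.39 in young high-fat mice, against 9.77 in old and 9.76 in young low-fat mice. These groups did not overlap, which can happen by chance with so few arrays. High-fat over low-fat was 1.51-fold there (log2 difference 0.60, SE 0.07, limma adjusted p = 0.0229). The middle and distal differences, 0.32 each, did not pass (adjusted p = 0.0668 and 0.124). In the middle segment the values were 10.67 in old and 10.30 in young high-fat mice, against 10.30 in old and 10.03 in young low-fat mice, and the distal ones were 8.99 and 8.68 in old and young high-fat mice, against 8.69 and 8.35 in old and young low-fat mice. Over the 4 pools Cd36 was 1.33-fold higher (log2 difference 0.41, SE 0.05, adjusted p = 0.00773), and this call passed under each of 10 alternatives. The proximal call was lost without any single proximal or middle array (0.564 to 0.631, adjusted p up to 0.265 over the 12 arrays left out).

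Fat cells and macrophages also express Cd36. Adipocyte markers were on the higher side in the proximal high-fat arrays for 9 of 9 tested genes (median 0.285), with 0 called. Their sum over 12 measured genes was 2464 to 2514 in high-fat and 1998 to 2278 in low-fat mice. Brightest in that sum were Pck1 (9.97 to 10.14 log2 intensity) and Cidec (9.31 to 9.64). Both were lower distally than proximally, where the other 7 tested were higher, so the sum need not track those 7. Car3 lay at 7.73 in old and 7.85 in young high-fat mice, against 5.57 in old and 7.07 in young low-fat mice (adjusted p = 0.0954). Adipoq, the fat cell hormone adiponectin, lay at 5.37 and 5.42 in old and young high-fat mice, against 4.76 and 5.04 in old and young low-fat mice. Fabp4, the fat cell binding protein, lay at 6.46 and 6.71 in old and young high-fat mice, against 5.91 and 6.52 in old and young low-fat mice. Lep, the hormone leptin, was between 3.64 and 4.74 on all 12 arrays, below the minimum for testing. Macrophage markers summed to 1974 to 2378 in proximal high-fat and 1996 to 2685 in proximal low-fat mice, with 0 of 10 called. Endothelial markers summed to 602 to 762 in proximal high-fat and 605 to 837 in proximal low-fat mice, with 0 of 10 called. The part of acinar RNA and of these cell types in the proximal Cd36 difference was not tested.

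Slc27a4 had high-fat minus low-fat values above 0 in all 6 pairs and lay at 11.39 in old and 11.15 in young high-fat mice, against 10.99 in old and 10.92 in young low-fat mice of the distal segment. The segment differences were 0.18, 0.22 and 0.31 from proximal to distal and did not pass, and that over the pools was 0.23 (SE 0.05, limma adjusted p = 0.0517). Fabp2 had pool values on the higher side by 0.18 (adjusted p = 0.0866), with its greatest difference in the proximal segment, where it lay at 13.24 in old and 13.23 in young high-fat mice, against 13.01 and 12.92 in old and young low-fat mice. Its diet differences from proximal to distal were 0.27, 0.17 and 0.11, the reverse order of those of Fabp1. The distal minus proximal diet difference of Fabp2, −0.16 (95% interval −0.393 to 0.078), did not pass.

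Plin2 was higher in high-fat mice in all 6 pairs. In the middle segment it lay at 10.80 in old and 10.50 in young high-fat mice, against 10.19 in old and 10.15 in young low-fat mice. These groups did not overlap, which can happen by chance with so few arrays. High-fat over low-fat was 1.39-fold (log2 difference 0.48, SE 0.08, limma adjusted p = 0.0336). In the proximal segment the values were 10.63 and 10.58 in old and young high-fat mice, against 10.27 and 10.26 in old and young low-fat mice, which gave a difference of 0.34 (adjusted p = 0.177). The distal difference was 0.19 (95% interval 0.001 to 0.389, adjusted p = 0.285). Over the pools Plin2 was 1.26-fold higher (log2 difference 0.34, SE 0.05, adjusted p = 0.0179). The middle call was lost whichever array was left out (0.347 to 0.604, adjusted p 0.0547 to 0.556). The call over the pools was lost without the middle segment (0.27, adjusted p = 0.107).

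Beside the middle Plin2 difference, macrophage markers summed to 2697 to 2803 in high-fat and 2453 to 2669 in low-fat mice (10 of 10 on the higher side, median 0.199, 0 called). Adipocyte markers summed to 2390 to 2878 in high-fat and 2456 to 2654 in low-fat mice, with 0 of 9 called. Pck1 and Cidec were again the brightest of them. Brush border markers summed to 57215 to 60403 in high-fat and 68640 to 70033 in low-fat mice, and Mgam, Slc2a2 and Slc5a1, which digest or transport sugars, were the 3 of 12 called, all lower, where 1.22% of all genes were. Fibroblast markers were on the higher side in 7 of 7 cases (median 0.328), with Dpt called. Of 10 markers of proximal and ileal identity, Slc10a2, the ileal bile acid transporter, was called higher (1.70, adjusted p = 0.0344) and Cubn, the cubilin receptor, lower (−0.51, adjusted p = 0.0221). Their part in the Plin2 difference was not tested. Plin2 was still called with the epithelial mean subtracted (0.50, adjusted p = 0.0388).

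Cideb and Plin3 had smaller differences on the same side in all 6 pairs. Cideb was at 12.05 in old and 11.88 in young high-fat mice, against 11.69 in both low-fat groups of the middle segment. Over the pools Cideb differed by 0.22 (SE 0.05, limma adjusted p = 0.0571) and Plin3 by 0.19 (SE 0.06, adjusted p = 0.109), neither past the threshold. In the distal segment Plin3 was at 11.51 in old and 11.54 in young high-fat mice, against 11.19 in old and 11.36 in young low-fat mice, a difference of 0.25 (adjusted p = 0.22).

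The acyltransferases had the smallest diet differences over the pools. Dgat1 was at 12.13 to 12.20 log2 intensity in high-fat and 12.21 in all low-fat arrays of the proximal and middle segments. Its difference over the pools was 0.01 (95% interval −0.104 to 0.127). Mogat2 differed by 0.08 (95% interval −0.041 to 0.209) and Dgat2 by 0.10 (95% interval −0.025 to 0.229). Dgat2 values pointed in different directions by segment. In the proximal segment it was at 11.35 and 11.34 in old and young high-fat mice, against 11.43 and 11.50 in old and young low-fat mice, and in the distal segment at 10.75 and 10.49 in old and young high-fat mice, against 10.39 and 10.30 in old and young low-fat mice. The difference between these ends was 0.40 (SE 0.11) and did not pass (adjusted p = 0.419).

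**Figure D3:**
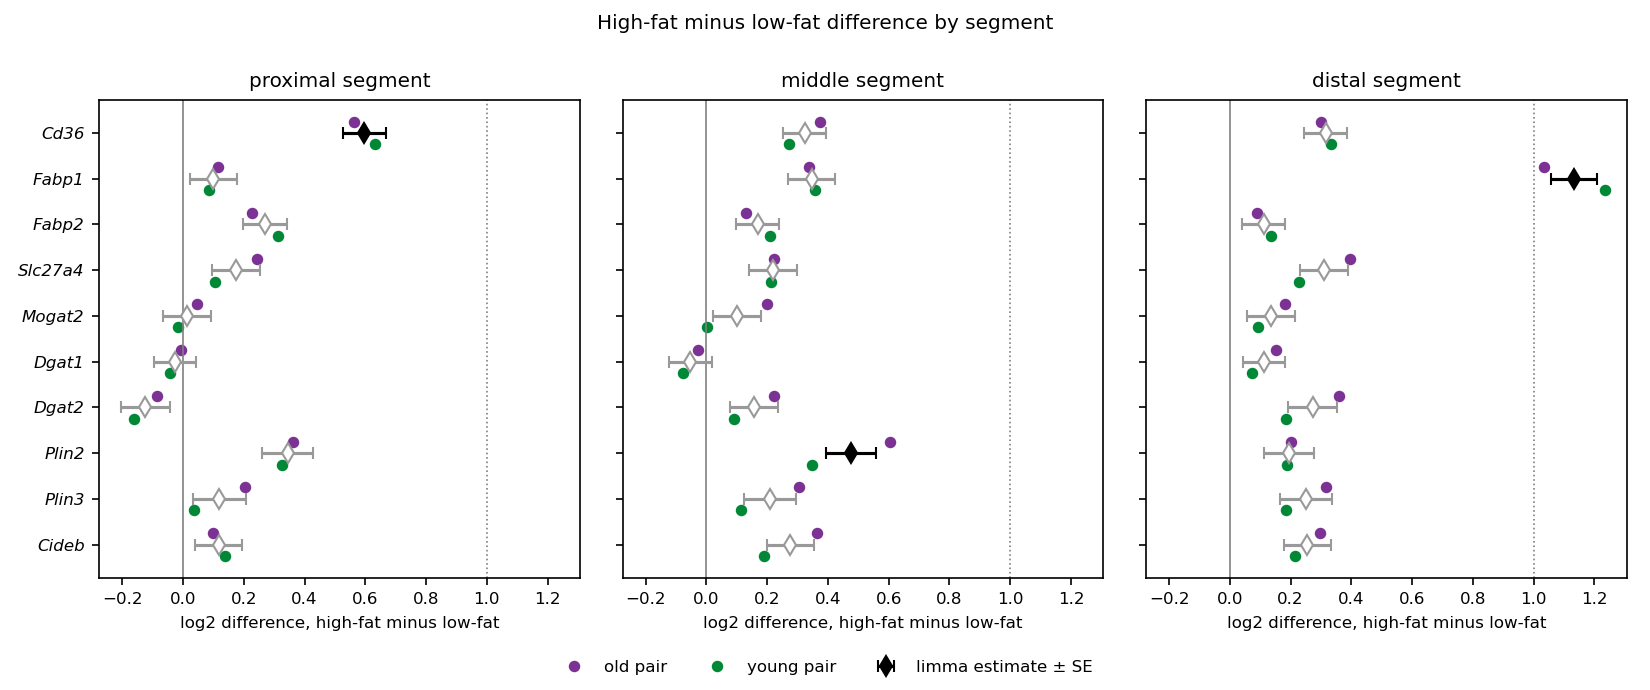
High-fat minus low-fat difference in log2 intensity (horizontal axis) of the 10 genes in each segment; circles are the old and young array pairs, diamonds the limma estimate with its SE, filled black where it passed, and the dotted line marks 2-fold. The filled diamonds are proximal Cd36 (0.60), middle Plin2 (0.48) and distal Fabp1 (1.13).

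By the study's own measure, a ratio over 2-fold between single arrays, Fabp1 in the distal segment was the one of the 10 that passed, in old mice (log2 ratio 1.03) and in young mice (1.23). This holds over 12 pairs of arrays, 6 for diet and 6 for age, and has no test. Of all genes, 0.184% in old and 0.134% in young mice passed 2-fold upward with the high-fat diet in this segment. The other diet pairs had 0 of the 10 genes, with 0.226% and 0.335% of all genes in old and young mice proximally, and 0.419% and 0.361% in the middle. The age pairs also had 0 of the 10, with 0.0503%, 0.0755% and 0.0335% of all genes higher in old than in young mice from proximal to distal on the high-fat diet, and 0.0419%, 0.0587% and 0.0838% on the low-fat diet.

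With age, 1 of the 10 genes was called, in 1 segment. Distal Fabp1 was higher in old mice, at 12.46 on the high-fat and 11.43 on the low-fat diet, against 12.06 on the high-fat and 10.82 on the low-fat diet in young mice. Old over young was 1.42-fold within the diets (log2 difference 0.51, SE 0.08, limma adjusted p = 0.0469). Each old array lay above the young array on the same diet, but the old low-fat array lay below the young high-fat array. Of all genes 0.159% passed as higher in this comparison. The call was lost whichever array was left out (0.407 to 0.608, adjusted p 0.0677 to 0.24).

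Beside it, smooth muscle markers in the distal segment were lower in old mice, with 7 of 10 called (0.411% of all genes were called lower), a median of −1.049, and sums of 1748 to 2940 in old and 3994 to 5464 in young mice. Macrophage markers summed to 1777 to 2567 in old and 2708 to 2813 in young mice, with 0 of 10 called. Fibroblast markers were on the lower side in 7 of 7 cases (median −0.588), with Col3a1 and Dpt called, and adipocyte markers in 8 of 9 (median −0.411), with 0 called. The epithelial sum was 58509 to 58858 in old and 58772 to 59113 in young mice, and with the epithelial mean subtracted the Fabp1 difference was 0.50 (adjusted p = 0.0421). The part of these cell types in the Fabp1 difference was not tested. Among the 169 genes over 2-fold lower distally, 71.0% had a positive age difference in the distal segment (median 0.151), against 50.9% of all genes. Among the 87 genes over 2-fold higher distally than in the middle segment, the share was 36.8% (median −0.055). Among the 283 over 2-fold higher distally than proximally it was 36.4% (median −0.074). The share was 57.2% (median 0.053) among the 439 genes over 2-fold lower distally than proximally. It was 51.4% (median 0.006) among the 2374 called lower from middle to distal.

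Cd36 had the next largest age values. Old minus young was 0.32 in the middle segment (SE 0.07, limma adjusted p = 0.292), 0.33 distally (SE 0.07, adjusted p = 0.113) and −0.03 proximally (95% interval −0.194 to 0.14), none past the threshold. Over the pools Cd36 differed by 0.21 (SE 0.05, adjusted p = 0.0827) and Fabp1 by 0.22 (SE 0.05, adjusted p = 0.0807). None of the 10 genes passed over the pools by limma, where 0.738% of all genes were called higher in old mice. An unadjusted p under 0.05 was reached there by 2 of the 10 and by 2120 of all 11927 genes. Proximally and in the middle segment 0 of 10 passed, and 0.0252% and 0.00838% of all genes were called higher. At an unadjusted p under 0.05 were 0 and 1 of the 10, against 1031 and 1047 of all 11927 genes. No gene passed the limma test of the age difference between the distal and the proximal segment (0.0% of all genes called, 1051 of them and 2 of the 10 at an unadjusted p under 0.05). The values were 0.44 for Fabp1 (95% interval 0.185 to 0.697) and 0.35 for Cd36 (95% interval 0.117 to 0.589), and Fabp1 passed with an intensity trend and robust variance.

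Of the other genes, Plin2 was at 10.80 in old and 10.50 in young high-fat mice of the middle segment, while the low-fat arrays there lay at 10.19 in old and 10.15 in young mice. The interaction of age and diet has no replicate pool, so this gap of 0.30 on the high-fat diet against 0.04 on the low-fat diet is given as values. Over the pools the age difference was 0.03 for Fabp2 (95% interval −0.091 to 0.143) and 0.01 for Dgat2 (95% interval −0.119 to 0.135).

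**Figure D4:**
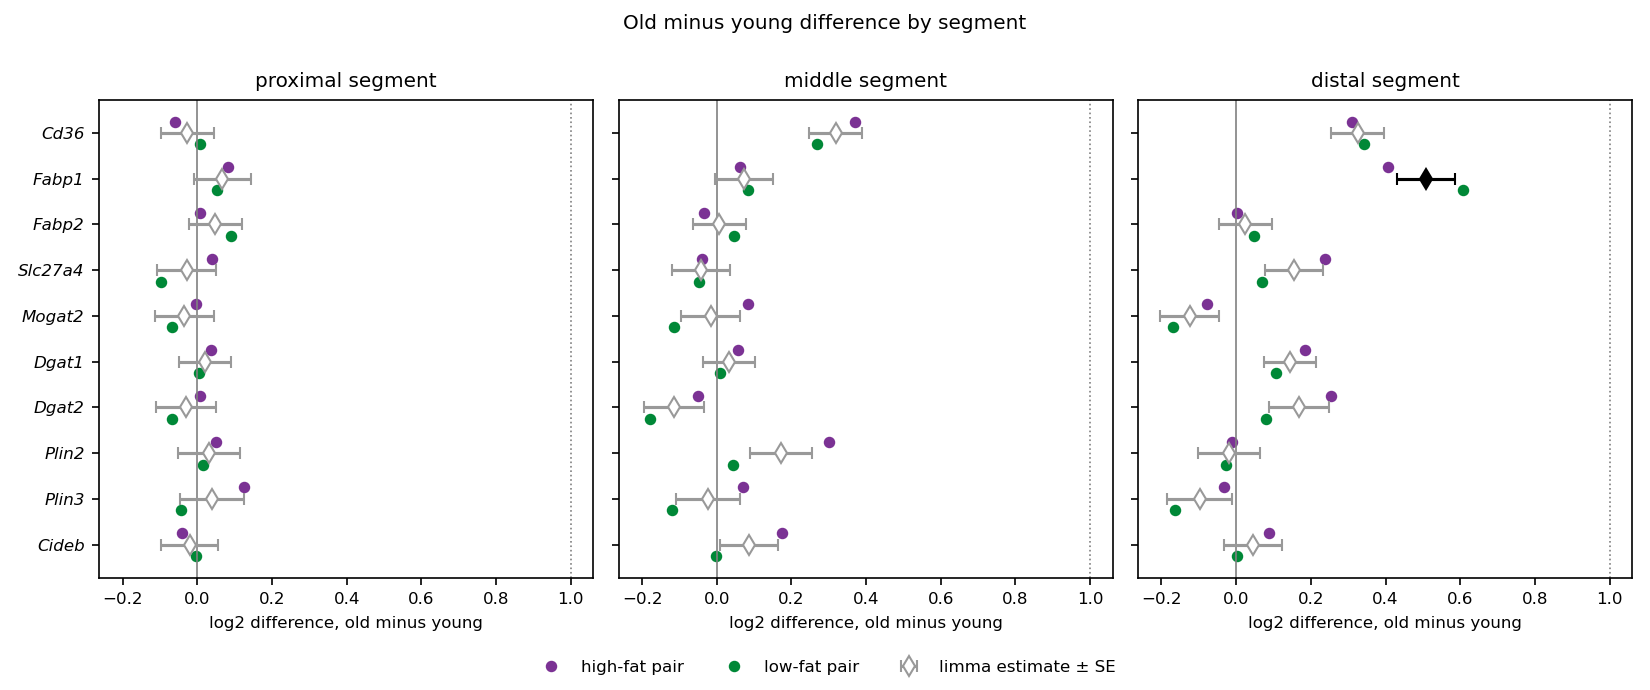
Old minus young difference in log2 intensity (horizontal axis) of the 10 genes in each segment; circles are the high-fat and low-fat array pairs, diamonds the limma estimate with its SE, filled black where it passed, and the dotted line marks 2-fold. The one filled diamond is Fabp1 in the distal segment (0.51).

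Across the 12 arrays, the 9 genes other than Fabp2 were positively correlated in all 36 pairs (Pearson r 0.426 to 0.95), the closest being Plin2 and Cideb. Fabp2 had a positive r with 1 of the other 9, and its lowest was −0.697 with Dgat2. The arrays share mice within pools, and segment took the largest share of the variation in each of these genes but Slc27a4. No correlation was computed with the segment removed. The genes outside the list with patterns most like each gene, by Pearson r over the 12 arrays, were Ms4a10 for Cd36 (0.985), AU040320 for Fabp1 (0.985), Mgst1 for Fabp2 (0.968), Gsdmd for Slc27a4 (0.934) and Lct for Dgat1 (0.995). Those of the others were Ada for Dgat2 (0.986), Bet1 for Plin2 (0.989), Surf4 for Plin3 (0.959), Pla2g6 for Cideb (0.996) and Ino80c, Manba and Ap1g2 for Mogat2 (0.968 each). Lct, lactase, is the enzyme that cleaves milk sugar at the brush border.

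Of 15 other genes of fatty acid uptake and activation tested, 3 were higher over the pools (Slc27a2, Acsl5 and Dbi) and 1 was lower (Acsm3), where 2.51% of all genes were called higher and 3.1% lower; the list median was 0.012, against −0.013 over all genes. Slc27a2, a fatty acid transport protein with very long-chain acyl-CoA synthetase activity, lay at 10.63 in old and 10.00 in young high-fat mice, against 9.67 in old and 9.20 in young low-fat mice of the distal segment. It was higher by 0.88 distally (SE 0.09, limma adjusted p = 0.0128) and by 0.83 in the middle (SE 0.09, adjusted p = 0.00501). Acsl5, a long-chain acyl-CoA synthetase of the enterocyte, was higher by 0.34 (adjusted p = 0.0184) and Dbi, the acyl-CoA binding protein, by 0.26 (adjusted p = 0.034) over the pools. Acsm3, a medium-chain acyl-CoA synthetase, was lower by 0.61 (adjusted p = 0.00981). With age, Slc27a2 was higher by 0.30 over the pools (adjusted p = 0.0469), Fabp4 was lower (−0.28, adjusted p = 0.0491), and so was Fabp6 (−1.07, adjusted p = 0.0393), whose middle arrays differed as given above; over the pools 0.738% of all genes were called higher and 2.12% lower with age. Toward the distal end 5 of the 15 were higher than proximally and 8 lower (27.3% and 27.5% of all genes), Slc27a2 by −1.72 and Scarb1, the lipoprotein receptor SR-BI, by −2.79.

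Of 13 other triglyceride synthesis genes tested, 1 was higher over the pools on the high-fat diet (2.51% of all genes): Lpin2, a phosphatidate phosphatase (0.28, SE 0.05, limma adjusted p = 0.0293). None passed within a segment by limma, and the list median over the pools was 0.085. From proximal to distal 6 were higher and 5 lower (27.3% and 27.5% of all genes). Gpam, the mitochondrial glycerol-3-phosphate acyltransferase of the glycerol phosphate route, was higher distally by 0.59 (SE 0.08) and Gpd1, which makes glycerol-3-phosphate, differed by −1.38 (SE 0.08).

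Of 20 other lipid droplet and lipolysis genes, 4 were higher over the pools (Cidec, Faah, Lipa and Hsd17b13) and 1 lower (Ces1d), against 2.51% and 3.1% of all genes, with a list median of 0.108. Cidec, a droplet fusion protein of the Cide family, lay at 8.86 in old and 8.80 in young high-fat mice, against 8.14 in old and 8.31 in young low-fat mice of the distal segment, and it was higher by 0.41 over the pools (SE 0.07, limma adjusted p = 0.0227). Ces1d, a carboxylesterase with triglyceride hydrolase activity, was lower by 0.74 over the pools (log2 difference −0.74, SE 0.05, adjusted p = 0.000784). In the proximal segment Ces1d lay at 8.28 in old and 7.99 in young high-fat mice, against 9.20 in old and 9.03 in young low-fat mice. Hsd17b13, a droplet protein, passed in the middle segment (0.53, SE 0.08, adjusted p = 0.0185). From proximal to distal 14 of the 20 were lower (27.5% of all genes), among them Hsd17b13 (−1.85) and Cidec (−0.94), and 3 were higher (27.3% of all genes), among them Plin1 (0.77), a droplet coat of fat cells.

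Of 18 nuclear receptors and regulators of lipid handling, 5 were higher over the pools (Pparg, Nr0b2, Srebf1, Srebf2 and Nr1h3) and 1 was lower (Ppargc1a), against 2.51% and 3.1% of all genes. Pparg, a fatty acid-sensing receptor, lay at 8.53 in old and 8.05 in young high-fat mice, against 7.71 in old and 7.42 in young low-fat mice of the middle segment (difference 0.72, SE 0.08, limma adjusted p = 0.00526). It was also higher in old mice, by 0.39 over the pools (SE 0.05, adjusted p = 0.0153) and distally by 0.52 (SE 0.08, adjusted p = 0.0428). Ppara, the receptor of the same family that is best known for fatty acid breakdown, differed by −0.10 with diet over the pools (adjusted p = 0.286). Nr0b2, the receptor SHP, was higher by 1.06 in the middle segment (SE 0.18, adjusted p = 0.0324), where Ppargc1a, a coactivator of mitochondrial genes, was lower by 0.63 (SE 0.08, adjusted p = 0.0118). Toward the distal end 11 were lower than proximally (27.5% of all genes), Pparg by −1.73 and Gata4, a factor of the proximal intestine, by −1.37, and 4 were higher (27.3% of all genes).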

How the data were processed

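RNA from the scrapings was hybridised to 12 arrays, 1 for each segment, age and diet. The deposited log2 values were computed by the authors over the small intestine arrays with RMA, which corrects background, equalises the distributions of the arrays and summarises each probe set; its version is not given in the sources used here. The deposited probe sets are transcript clusters of the array's maker, whereas the methods describe sets built on Entrez genes. The labels give 1 week of chow and 2 weeks of low-fat run-in, where the methods give longer times for both.

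A single gene symbol is listed for 21789 of the 35556 probe sets, more than 1 for 1621 and no symbol for 12146. The brightest set with 1 symbol stood for each of 19938 genes. As in the methods, an intensity over 50 on at least 1 array was required, and acinar pancreas genes were removed (21 genes here), which left 11927. The 12 groups hold 1 array each, so the number of arrays limits the precision. limma 3.58.1 in R 4.3.3 (statmod 1.5.0) was fitted 3 ways: to the 12 arrays with segment and with age and diet within segment (9 coefficients, 3 residual degrees of freedom), where the pair at the other age or diet is the repeat and any true interaction adds to the error; to the means of the 4 pools (1 residual degree of freedom); and to segments with the pool as a block (6 residual degrees of freedom). Benjamini-Hochberg adjusted p-values under 0.05 over all 11927 genes counted as passed; intervals are 95%. The correlation within pools was −0.0801. No label says that any of the arrays are repeats, so p-values measure the spread between these pooled arrays. The scripts were tested on simulated data.

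The genes named are the 10 of the list, the members of 4 other lists that passed in the comparison described (examples where many did) and the genes most like each of the 10; Ppara was named beyond this rule, after its value was seen. The 10 genes, the lists and the markers were chosen with earlier results of these data known. Alternatives covered the intensity filter, the probe set rule, quantile normalization, median centring, subtraction of the epithelial marker mean, an intensity trend with robust variance, the acinar genes, a random block for the pool, the arrays of a segment alone, each array, pool or segment left out, no pool block and a 1.5-fold threshold. Tables and figures were made with pandas 2.3.3, numpy 2.4.6 and matplotlib 3.10.9 in Python 3.11.15. Promoter windows are from RefSeq on GRCm38.p6.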

Additional observations from a re-analysis of the deposited data

Results flagged for a closer look

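The diet difference of Fabp1 was larger in the distal than in the proximal segment by 1.03 on the log2 scale. This passed the limma test of the difference itself (adjusted p = 0.0449). The call was lost with the pool as a random block (adjusted p = 0.0603) and whichever array was left out (adjusted p 0.0901 to 0.182). Proximal Fabp1 lay near the top of the scale, and the proximal arrays carried more acinar RNA in high-fat than in low-fat mice. The part of either in the difference was not tested. For the other genes here, both array pairs of one segment pointed one way and both pairs of another segment the opposite way, which small values can do with 2 pairs each. With diet, Dgat1 differed between the distal and middle segments by 0.165 and Dgat2 between the middle and proximal segments by 0.279, and neither difference was tested. Between the distal and proximal segments the diet difference of Dgat1 differed by 0.138 and that of Dgat2 by 0.397, and neither passed the limma test (adjusted p = 0.684 and 0.419). With age, the differences between the distal and middle segments were 0.198 for Slc27a4, 0.282 for Dgat2 and −0.191 for Plin2, none of them tested. Between the distal and proximal segments the age difference of Plin2 differed by −0.05 and that of Cideb by 0.066, without passing (adjusted p = 0.905 and 0.864).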

How the results depend on the processing

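Of 2220 values of the 10 genes under an alternative, 2114 kept their direction where called and their side of the threshold, 40 passed where they had not, 65 no longer passed and 1 reversed; 52, called or not, were 0 or had the sign opposite to the value reported. The reversed one is the middle minus proximal difference of Mogat2, −0.158 (adjusted p = 0.0466) with the epithelial mean subtracted, against 0.021 as reported; the same alternative called 6 genes in place of 2 in that comparison. An intensity trend with robust variance called 3, 6 and 6 genes with diet from the proximal to the distal segment in place of 1 each, 7 over the pools in place of 3, 2 with age in the distal segment in place of 1, 2 over the pools in place of 0 and 1 for the age difference between the ends in place of 0. With no intensity filter, 0 passed with diet proximally, 0 with diet in the middle segment, 0 with age in the distal segment and 0 for the diet difference between the ends. The age count in the distal segment was also 0 after quantile normalization, with acinar genes kept and from the arrays of that segment alone, the proximal diet count was 0 from that segment's arrays alone, and the diet difference between the ends was 0 after quantile normalization and with the pool as a random block. Over the pools, the diet count was 7 with the epithelial mean subtracted and 5 without the proximal segment, and the age count was 2 and 1. Leaving out each array gave 0 to 1 genes with diet in the proximal segment, and 0 in every case with diet in the middle, with age in the distal segment and for the diet difference between the ends; leaving out each pool gave 1 to 2 genes from proximal to middle. Fabp1 over the pools with diet was 0.22 (adjusted p = 0.0993) without the distal segment, and Plin2 did not pass there with no intensity filter (adjusted p = 0.0647). Plin3 from middle to distal did not pass after quantile normalization (−0.096, adjusted p = 0.179), without the pool block (adjusted p = 0.063) or without the old low-fat pool (adjusted p up to 0.0536 over the pools left out). At 1.5-fold, 5 gene and pair combinations passed in place of 2. The causes were not tested, except that leaving out arrays leaves fewer degrees of freedom. The labels give no replicate numbers; the segments were compared within pools, with the pool as a block.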
